A study of Saccharomyces cerevisiae with 48 samples.

Results

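The mitochondrial genome of budding yeast (Saccharomyces cerevisiae) holds 8 genes for proteins of the respiratory chain, the ATP synthase and the mitochondrial ribosome: COX1 (Q0045), COX2 (Q0250), COX3 (Q0275), COB (Q0105), ATP6 (Q0085), ATP8 (Q0080), OLI1 (Q0130) and VAR1 (Q0140). They were taken by name from the count tables, whatever their values, and were 8 of 6465 counted genes and 8 of 46 counted genes on the mitochondrial genome; the reading frames inside introns, the ribosomal RNAs and the transfer RNAs were left out. Their RNA was followed after long loss of Bdf1 and Bdf2, the yeast BET proteins, which bind acetylated histones and serve transcription of nuclear genes by RNA polymerase II. RNA synthesis was read by SLAM-seq: 4-thiouracil (4tU) fed to the cells is built into new RNA and, once alkylated, is read as C in place of T. A read with at least 2 such conversions is a T>C read, and the total reads of a gene count its labelled and unlabelled RNA alike.

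All 8 strains had the same S288C-type background, and in all of them both endogenous BET proteins carried a 3xV5-mAID degron tag and OsTIR1, the plant receptor that auxin activates, was made from the GPD1 promoter. RDY73 had no other copy of BDF1. In the other 7 strains BDF1 was also integrated at TRP1, under its own promoter: unmodified in RDY234, with the first bromodomain mutated in RDY235, the second in RDY236 and both in RDY237, with motif B and the BID deleted in RDY247, and with 2 residues of the ET domain changed in RDY249 and 4 in RDY251. Cultures in glucose medium received 1 mM indole-3-acetic acid (IAA), which has the tagged proteins degraded, or its solvent DMSO for 3 h, followed by 5 mM 4tU for 6 min by the sample labels. Each of the 16 groups held 3 libraries, described as biological replicates, and labelled Schizosaccharomyces pombe cells were mixed in as a spike-in before RNA was extracted. Library numbers fell into 2 series, RDY73, RDY247 and RDY249 in one and the other 5 strains in the other.

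Each complex of the inner membrane that these genes serve is built from both genomes. COX1, COX2 and COX3 encode the core of cytochrome c oxidase, COB encodes cytochrome b of the bc1 complex, ATP6, ATP8 and OLI1 encode parts of the membrane sector of the ATP synthase, and VAR1 encodes a protein of the small mitochondrial ribosomal subunit. The mitochondrial genome is transcribed by its own RNA polymerase, Rpo41, a nuclear-encoded enzyme related to phage polymerases, with the specificity factor Mtf1, from promoters that hold a short conserved sequence. The transcripts often carry several genes and are cut into messages whose 3′ ends lie at another conserved sequence, the dodecamer. These messages are not polyadenylated in yeast, and most are read by translation activators that are particular to 1 message.

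The 3′ ends are shown first, because the counted interval of each gene ran from its start to 250 bases past its end and took in this conserved site for 5 of the 8. The sequences are from the R64 genome (chromosome MT, plus strand), in lower case with the 12 bases shared between genes in capitals.
COX1, bases 26761 to 26790: taatataatAATAATATTCTTataaaaata
COX2, bases 74567 to 74596: aataattatAATAATATTCTTaaatataat
COX3, bases 80114 to 80143: tattattatAATAATATTCTTacaaatata
COB, bases 43736 to 43765: taatactttAATAATATTCTTaaaaataat
ATP6, bases 29344 to 29373: cccccttttAATAATATTCTTttatctaat
VAR1, bases 50668 to 50697: aataaataaAATAATATTCTTaatttttat
AATAATATTCTT was the only run of 12 bases that most of the genes, 6 of 8, shared within 600 bases after the stop codon. It began 69 bases after the COX1 gene, 63 after COX2, 101 after COX3, 98 after COB and 87 after ATP6, all inside the counted interval, and 580 bases after VAR1, outside it. Neither ATP8 nor OLI1 had a match within the window. The motif was searched on the strand of the gene, and 6 of 6398 nuclear genes (0.0938%) had it in a window of the same size. The mitochondrial genome of 85779 bases held 9 matches on the plus strand, where all 8 genes lie, and 2 on the minus strand.

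The start signal is shown for the pair of genes that had it nearby, with the 9 bases in capitals.
COX1, bases 13339 to 13368: ataagtattgATATAAGTAatagatataat
OLI1, bases 46139 to 46168: atacacatttATATAAGTAtatatatatat
ATATAAGTA, the core of the yeast mitochondrial promoter, was found 11 times on the plus strand and 3 times on the minus strand of the mitochondrial genome. The nearest match lay 469 bases before COX1 and 574 before OLI1, which had 2 within 1000 bases. The nearest upstream match of the other 6 genes was farther than that, from 1662 bases for COB to 15138 for ATP6. Of 6398 nuclear genes 1.55% had these 9 bases on their own strand within 1000 bases upstream, and 2.84% on either strand. A match is a stretch of letters and not a measured start site.

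The S. cerevisiae reads of a library numbered 3301563 to 10699839, the T>C reads among them 42821 to 1163027, and the S. pombe reads 336128 to 1242931. The reads of the 8 genes together made up 0.219% to 0.553% of the S. cerevisiae reads of a library, 15759 to 46475 reads, and 133 to 588 of those were T>C reads. Size factors from 4955 S. pombe genes lay between 0.552 and 2.35, and a normalised value below is a count divided by its library's size factor. In the check of the strains under DMSO, BDF1 averaged more normalised total reads in each of the 7 strains with the integrated copy, up to 2510 in RDY247, than in RDY73, with 582. In a bulk culture mixed by optical density, fewer S. cerevisiae cells and less RNA per cell cannot be told apart from a normalised value.

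All 8 genes had reads in every library, and COX1 and OLI1 led. COX1 averaged 16039 total reads per library over the 48 libraries, OLI1 7078, COB 2405, ATP8 765, VAR1 362, COX2 81.4, ATP6 72.2 and COX3 36.7. COX1 held 59.8% of the reads of the 8 genes and OLI1 26.4%. Per kilobase of counted interval the order changed, with OLI1 at 14714 reads, ATP8 at 1927, COX1 at 1221, COB at 327, VAR1 at 250, COX2 at 80.9, ATP6 at 70.1 and COX3 at 34.7. The COX1 and COB intervals span their introns, so reads from the 6 intron reading frames of COX1 and the 3 of COB were counted in them as well. Because the libraries were made for the 3′ ends of messages and these messages lack a poly(A) tail, the levels describe what the method caught and not how many molecules each gene had.

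**Figure D1:**
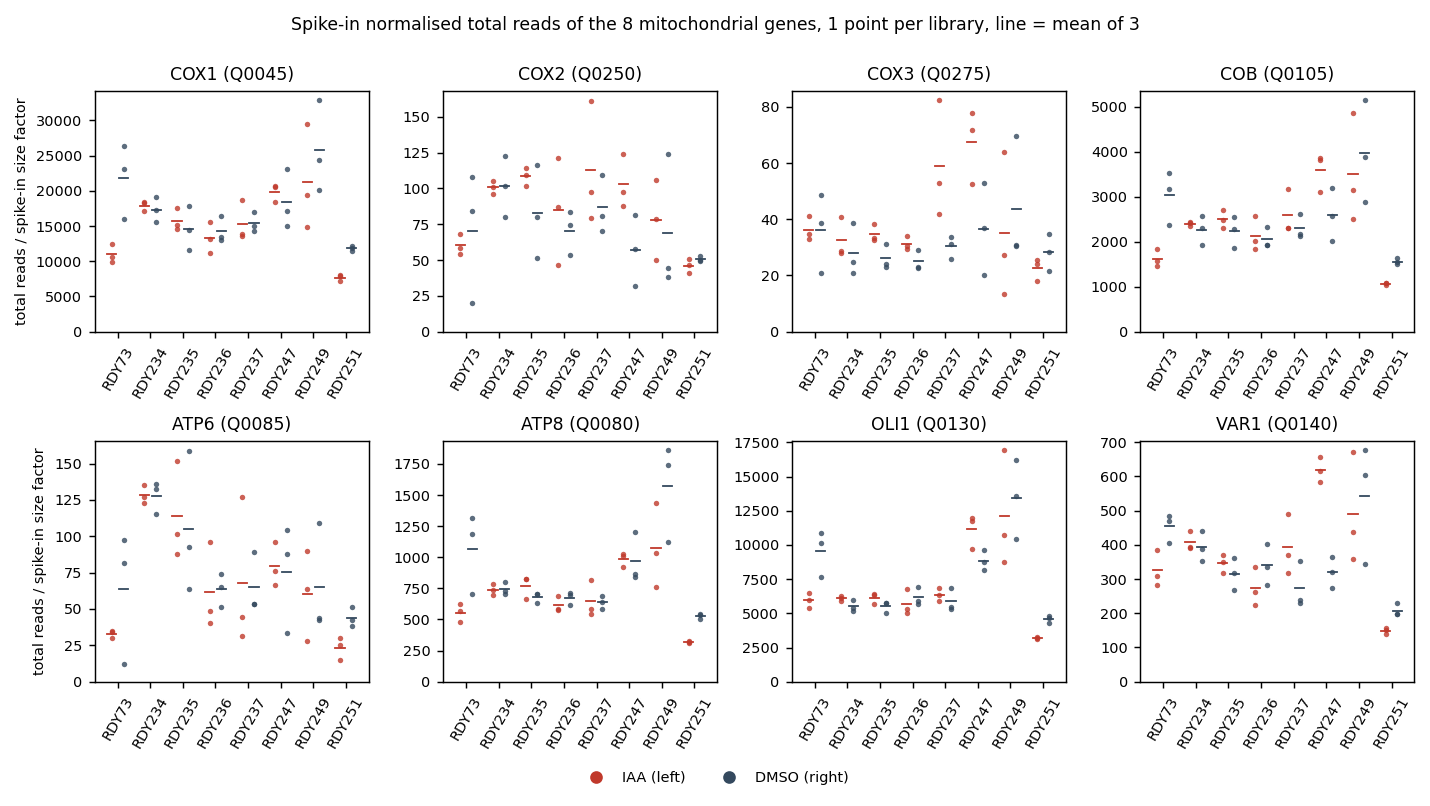
Total reads of each of the 8 genes divided by the spike-in size factor, 1 panel per gene, with 1 point per library (IAA red on the left, DMSO dark on the right) and a line at the mean of 3 libraries. In RDY73 the IAA and DMSO points of COX1, COB, OLI1, ATP8 and VAR1 do not overlap, nor do those of COX1, COB, OLI1, ATP6, ATP8 and VAR1 in RDY251.

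Few of these reads were labelled. Over all libraries 0.867% of COX1 reads were T>C reads, 1.73% of OLI1 reads, 1.68% of COB reads, 0.526% of ATP8 reads and 2.05% of VAR1 reads. COX3 had the highest share, 6.52%, on 115 T>C reads in all, and COX2 had 2.76% on 108, while ATP6 had 0.981% on only 34. No T>C read was found for ATP6 in 26 of the 48 libraries, for COX2 in 11, for COX3 in 6 and for ATP8 in 4. COX1, COB and OLI1 held 94.7% of the T>C reads of the 8 genes and were the 3 that reached the mean of 10 T>C reads needed for a test.

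Counted per T position and summed, the 8 genes carried fewer conversions than the summed nuclear genes in 48 of 48 libraries. The sum is mostly COX1 and OLI1, and single genes were above the nuclear rate in some groups, as OLI1 and COX3 below. In RDY234 the summed rate was 3.71 ± 0.538 per 10000 covered T under IAA and 3.15 ± 0.364 under DMSO, against 81.4 ± 3.59 and 77.8 ± 11.5 for the nuclear genes (SD, n = 3 each). The nuclear rate was between 1.69 and 28.5 times the mitochondrial rate of the same library. The T content of the 8 intervals lay between 36.5% and 48.9%. The mitochondrial genes of the spike-in, labelled in S. pombe cells, were also below the nuclear genes of that species in 48 of 48 libraries, by 3.63 to 25.5 times. The rate and the T>C count are not separate measures, since the recorded conversions came nearly all from T>C reads. Libraries had 2.04 to 2.28 conversions per T>C read of the summed 8 genes and 2.06 to 2.93 for nuclear genes. Over all libraries VAR1 had 1.57, ATP8 1.65 and ATP6 1.97, under the 2 that define a T>C read. For these genes some conversions of T>C reads were thus not recorded within the interval. The rate that unlabelled RNA would give was not measured, because samples without 4tU were not analysed here.

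**Figure D2:**
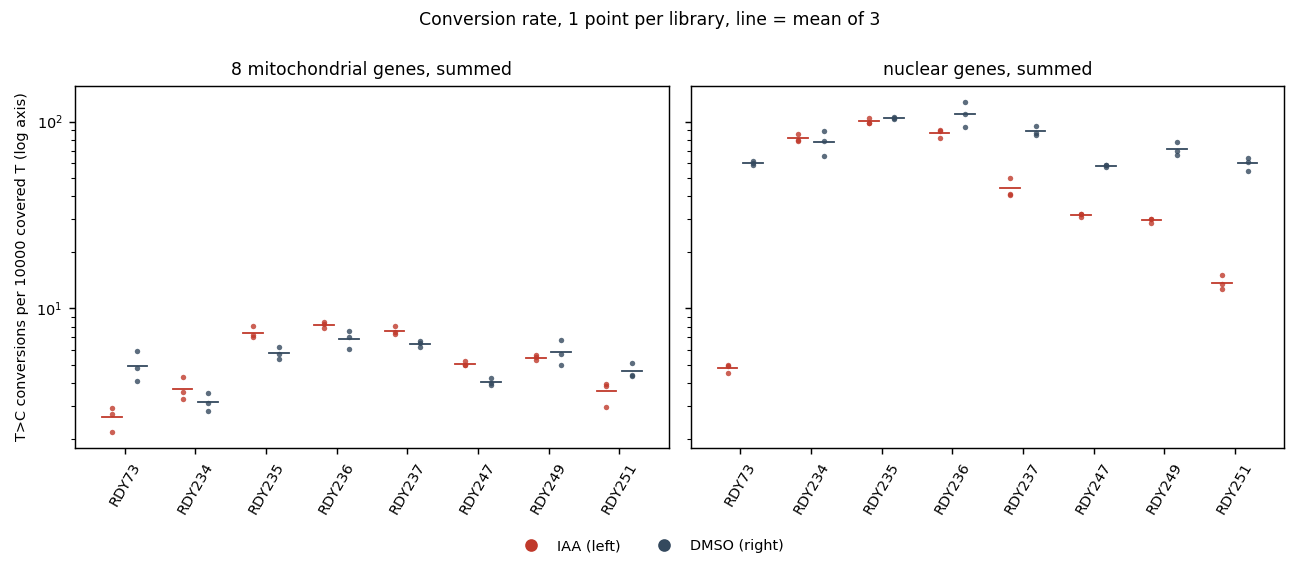
T>C conversions per 10000 covered T, on a log axis, for the 8 mitochondrial genes summed (left panel) and the nuclear genes summed (right panel), with 1 point per library, IAA left of DMSO, and a line at the mean of 3. Nuclear rates in RDY73 average 4.81 under IAA and 60.1 under DMSO, while the mitochondrial rates average 2.61 and 4.92.

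The first question was what 3 h without Bdf1 and Bdf2 did to new mitochondrial RNA, asked in RDY73 by IAA against DMSO. COX1, the large catalytic subunit of cytochrome c oxidase, had 66, 50 and 77 T>C reads in the IAA libraries A, B and C, against 257, 117 and 137 in the DMSO libraries. Divided by the size factors these were 32.2, 32.8 and 32.7, against 237, 121 and 155. The IAA libraries lay close together and all below the lowest DMSO library. On the log2 scale COX1 fell by 2.39 (SE 0.26, adjusted p = 3.91e-15 in edgeR's quasi-likelihood test), which is 5.26-fold. A gene is called lowered or raised here where its Benjamini-Hochberg adjusted p, over all 5118 genes tested, is below 0.05 and its fold is 2 or more.

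COB, cytochrome b, behaved much the same, with 17, 16 and 19 T>C reads under IAA, against 42, 29 and 38 under DMSO. Its normalised values were 8.29, 10.5 and 8.07 under IAA and 38.7, 30.1 and 43.1 under DMSO, with no overlap. It fell by 2.06 on the log2 scale (SE 0.303, adjusted p = 6.43e-10). OLI1, which forms the rotating ring of the ATP synthase, had 192, 123 and 106 T>C reads under IAA, against 192, 203 and 131 under DMSO. The raw counts overlapped, but the IAA libraries held more spike-in reads, and the normalised values of 93.7, 80.8 and 45.05 under IAA lay below the 177, 211 and 149 under DMSO. OLI1 fell by 1.30 (SE 0.219, adjusted p = 4.13e-08).

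All 3 tested genes were thus lowered in RDY73, in a comparison that called 99.9% of the 5118 genes, each of them lowered. Their falls were small beside those of the other genes, whose median was −5.57 on the log2 scale, or −5.51 with the 298 genes without a T>C read under IAA set at a floor of 3 counts over the group: 48 genes had a higher log2 change than COX1, 21 than COB and 9 than OLI1. Leaving out 1 library at a time, COX1 stayed between −2.59 and −2.08, COB between −2.19 and −1.95 and OLI1 between −1.53 and −1.03. The ratio of COX1 to OLI1 T>C reads, which needs no scaling, was 0.344, 0.407 and 0.726 in the IAA libraries and 1.34, 0.576 and 1.05 in the DMSO libraries. These ratios overlapped, and a difference between the falls of COX1 and OLI1 was not tested. How many of the T>C reads left under IAA came from background of unlabelled RNA was not measured, which limits how the size of these falls can be read.

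The other 5 genes were under the mean of 10 T>C reads over all libraries that the test above required. VAR1 had 6, 7 and 3 under IAA and 8, 11 and 8 under DMSO, and its normalised values of 2.93, 4.60 and 1.27 under IAA lay below the 7.37, 11.4 and 9.08 under DMSO. ATP8, a small membrane subunit of the ATP synthase, had 2, 0 and 1 against 9, 4 and 3. COX3, the third core subunit of the oxidase, had 1, 0 and 3 against 2, 0 and 3. ATP6, which forms part of the proton path of the ATP synthase, and COX2, which takes electrons from cytochrome c, were at 0 in some groups. ATP6 had 0 T>C reads among 193 total reads under IAA, which allows a share of up to 1.55%, against 3 T>C reads under DMSO. COX2 had 3 under IAA and 0 among 210 reads under DMSO, which allows up to 1.43%. These limits cover counting error only. In a test of every gene with any T>C read, which called 92.9% of 6391 genes in RDY73, ATP8 fell by 3.15 (adjusted p = 0.000207, edgeR) and VAR1 by 1.71 (adjusted p = 0.00197). ATP6 was also called lowered (adjusted p = 0.0356) on the 0 and 3 T>C reads above, which allow no fold, and neither COX2 nor COX3 was called.

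**Figure D3:**
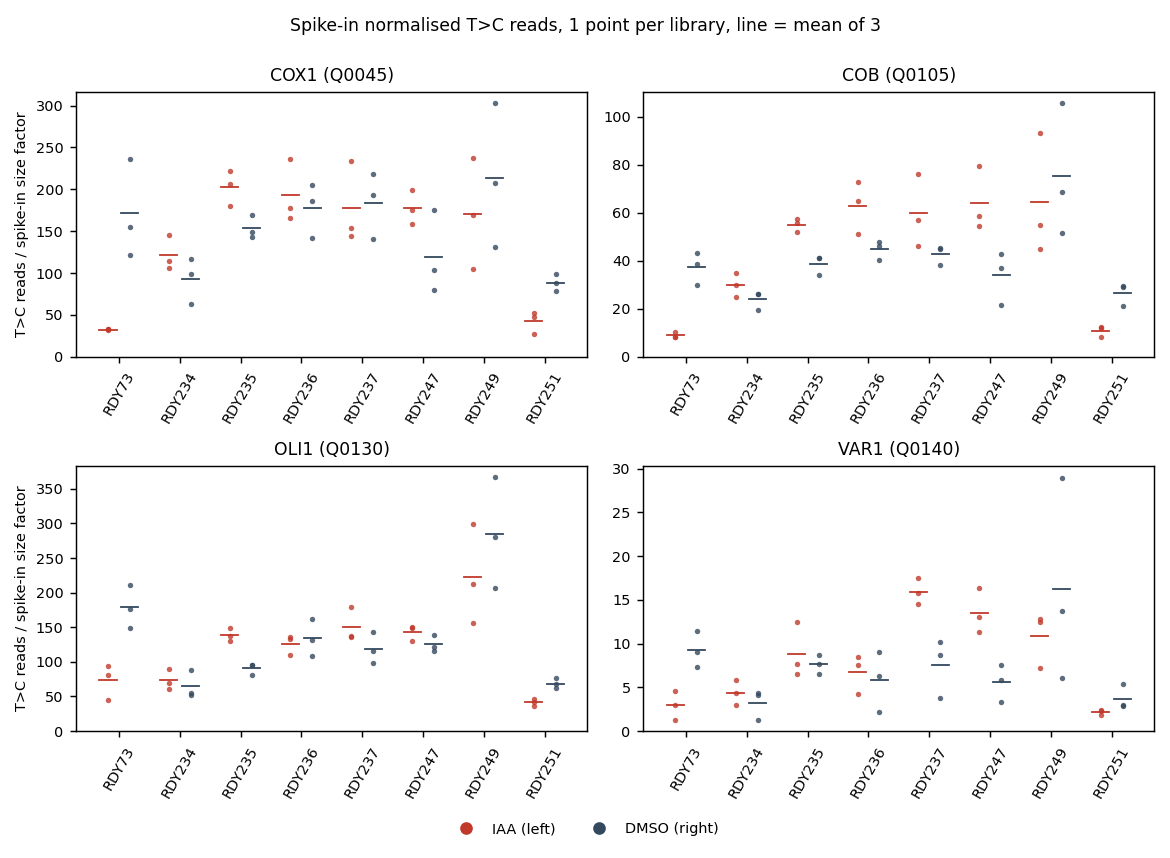
T>C reads divided by the spike-in size factor for COX1, COB, OLI1 and VAR1, with 1 point per library, IAA left of DMSO, and a line at the mean of 3. In RDY73 and RDY251 the 3 IAA points of each gene are below the 3 DMSO points, and in the other strains the treatments overlap or the IAA points are the higher ones.

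With unmodified BDF1 at TRP1, in RDY234, no tested gene was called. COX1 had normalised T>C reads of 106, 146 and 115 under IAA and 116, 63.6 and 98.9 under DMSO, which overlapped. Its log2 change was 0.39 (SE 0.257, adjusted p = 1 in edgeR), with COB at 0.33 and OLI1 at 0.14. The comparison called 0% of the 5118 genes, with DESeq2 calling 0 genes as well, and 68 genes had an unadjusted p under 0.05 in edgeR.

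The response to IAA differed between RDY73 and RDY234 for each tested gene. The difference of the log2 changes was −2.78 for COX1 (SE 0.365, adjusted p = 1.27e-11), −2.39 for COB (SE 0.433, adjusted p = 2.55e-07) and −1.43 for OLI1 (SE 0.332, adjusted p = 3.60e-05), in edgeR's test of the difference, which called 99.9% of all genes with a median of −5.52. The strains belong to different series of library numbers, but each response was measured within 1 series.

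RDY251, with 4 changed residues in the ET domain, was the only other strain with a called fall. COX1 had 27.0, 52.6 and 48.1 normalised T>C reads under IAA, against 78.2, 87.7 and 99.0 under DMSO, with no overlap, and fell by 1.07 on the log2 scale (SE 0.264, adjusted p = 0.000105). COB had 12.3, 8.21 and 12 under IAA, against 21.3, 29.0 and 29.4 under DMSO, again with no overlap, and fell by 1.26 (SE 0.311, adjusted p = 9.74e-05). OLI1 had 35.8, 46.0 and 42.7 against 67.5, 62.3 and 76.4, a log2 change of −0.73 (SE 0.243, adjusted p = 0.00334), under the 2-fold limit. The comparison called 99.1% of all genes, with a median of −3.48. COX1 was under 2-fold without DMSO library C (−0.98) and without IAA library A (−0.81), both with adjusted p values under 0.05 in edgeR. In the test of every gene with any T>C read, which called 88.9% of all genes here, ATP8 fell by 3.26 (adjusted p = 0.0033, edgeR) on 1 T>C read under IAA and 11 under DMSO.

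Set against RDY234, the RDY251 response was lower by a log2 difference of −1.45 for COX1 (SE 0.368, adjusted p = 0.000153) and −1.59 for COB (SE 0.438, adjusted p = 0.000464), both called. OLI1 had −0.87 (SE 0.348, adjusted p = 0.0147), and was called, at −1.16, without RDY234 DMSO library C. This test called 99% of all genes in edgeR.

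The other 5 strains with a variant kept the 3 genes within 2-fold of their DMSO level, although 3 of those strains had lowered most nuclear genes. In RDY237, with both bromodomains mutated, the log2 changes were −0.06 for COX1, 0.48 for COB and 0.34 for OLI1, in a comparison that called 90.5% of all genes with a median of −1.61. In RDY247, without motif B and the BID, COX1 had 0.55 (SE 0.249, adjusted p = 0.0311 in edgeR), COB 0.91 (SE 0.271, adjusted p = 0.00147) and OLI1 0.18, where 76.7% of all genes were called and the median was −1.30. COB had 79.3, 54.3 and 58.7 normalised T>C reads under IAA in this strain, against 21.8, 37.0 and 42.9 under DMSO, and it was called, at 1.11, without DMSO library C. In RDY249, with 2 changed ET residues, the values were −0.34, −0.24 and −0.37 for COX1, COB and OLI1, where 94.6% were called and the median was −1.81. None of these 3 had an adjusted p under 0.05 in RDY249, and the groups overlapped for each. With the library letter as a replicate block, OLI1 had an adjusted p of 0.0354 in edgeR, still under 2-fold.

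With 1 bromodomain mutated, the median log2 change of all genes was −0.18 in RDY235, with 282 genes at an unadjusted p under 0.05, and −0.58 in RDY236, with 3208. RDY235 had 0.40, 0.50 and 0.61 for COX1, COB and OLI1, with the IAA libraries all above the DMSO libraries but each adjusted p at 0.806 in edgeR, where 0.0195% of all genes were called. RDY236 had 0.12, 0.49 and −0.09, where 5.3% of all genes were called. No tested gene had a response in these 5 strains that differed from that of RDY234 by the call used, in tests that called 0% of all genes for RDY235, 0% for RDY236, 88.2% for RDY237, 69.8% for RDY247 and 92.8% for RDY249. Unadjusted p values under 0.05 numbered 57 genes for RDY235 and 1453 for RDY236 in edgeR, and DESeq2 called 0 and 3 genes. With the library letter as a replicate block, edgeR called 1 gene for RDY235 and 141 for RDY236 in this test. The largest of these differences among the tested genes was COX1 in RDY249, at −0.73 (SE 0.355, adjusted p = 0.0453), which was called, at −1.03, without IAA library A.

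Few T>C reads stood behind VAR1 and COX3, but in RDY237 and RDY247 their counts were higher under IAA. VAR1 had 20, 17 and 20 T>C reads under IAA in RDY237, against 9, 4 and 7 under DMSO, and 12, 9 and 10 under IAA in RDY247, against 4, 7 and 3. The normalised VAR1 values did not overlap in either strain. COX3 had 5, 9 and 16 T>C reads under IAA in RDY237, against 2, 2 and 3 under DMSO. In the test of every gene with any T>C read, which called 79.3% of all genes in RDY237 and 66.9% in RDY247, VAR1 was called in both strains (log2 change 1.11, adjusted p = 0.0243 in RDY237, and 1.23, adjusted p = 0.0337 in RDY247), as was COX3 in RDY237 (1.68, adjusted p = 0.0202, edgeR) and COX2 in RDY247 (2.38, adjusted p = 0.0338, on 11 T>C reads under IAA and 2 under DMSO).

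To set the mitochondrial genes directly against the nuclear ones, the same test was run with size factors from the T>C reads of 2721 nuclear genes, those with T>C reads in every library, so that 0 stands for the middle of those genes. The median of all tested genes on this scale was −0.36 in RDY73. There the 3 tested genes rose relative to the nuclear genes: COX1 by 2.96 on the log2 scale (SE 0.237, adjusted p = 8.38e-18), COB by 3.28 (SE 0.31, adjusted p = 1.71e-14) and OLI1 by 4.04 (SE 0.189, adjusted p = 5.42e-30). This comparison called 16.2% of all genes, 7.76% raised. COX1 had 696.1 to 839.9 T>C reads under IAA on this scale, against 69.7 to 136 under DMSO. In RDY73 the summed rate of the 8 genes was 2.61 ± 0.372 conversions per 10000 covered T under IAA and 4.92 ± 0.919 under DMSO. The S. pombe mitochondrial genes of the same libraries had 2.46 ± 0.612 and 2.70 ± 1.38 (SD, n = 3 each). How much of such low rates was background of unlabelled RNA was not measured.

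The 3 genes were also raised relative to the nuclear genes in RDY251, RDY237, RDY247 and RDY249. In RDY251 COX1 had 2.24 (SE 0.241, adjusted p = 4.07e-12), COB 2.05 (SE 0.3, adjusted p = 7.73e-08) and OLI1 2.59 (SE 0.221, adjusted p = 3.21e-16), where 9.59% of all genes were called. In RDY237 they had 1.45, 1.97 and 1.84, where 3.85% were called, and in RDY247 1.73, 2.11 and 1.38, where 5.02% were called. In RDY249 they had 1.38, 1.49 and 1.30, where 3.85% were called, and the largest adjusted p among these 3 strains and 3 genes was 3.67e-07 in edgeR. The calls in these 5 strains held when any 1 library was left out.

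Only COB was raised in RDY236, at 1.03 (SE 0.212, adjusted p = 0.0011, edgeR), where 0.625% of all genes were called, and it was under 2-fold without DMSO library B (0.86) or IAA library B (0.93). No member was called in RDY235, where OLI1 had 0.78 (SE 0.189, adjusted p = 0.0478) and 0.0586% of all genes were called, or in RDY234, where 0.0195% were called. The nuclear scale leaves out the spike-in, and its values say how the genes moved relative to each other only. With the summed nuclear T>C reads as the scale instead, raised genes made up 12.4% of the calls in RDY73, against 47.8% with size factors, and 15% against 60.3% in RDY251, and COX1, COB and OLI1 remained raised in both strains.

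**Figure D4:**
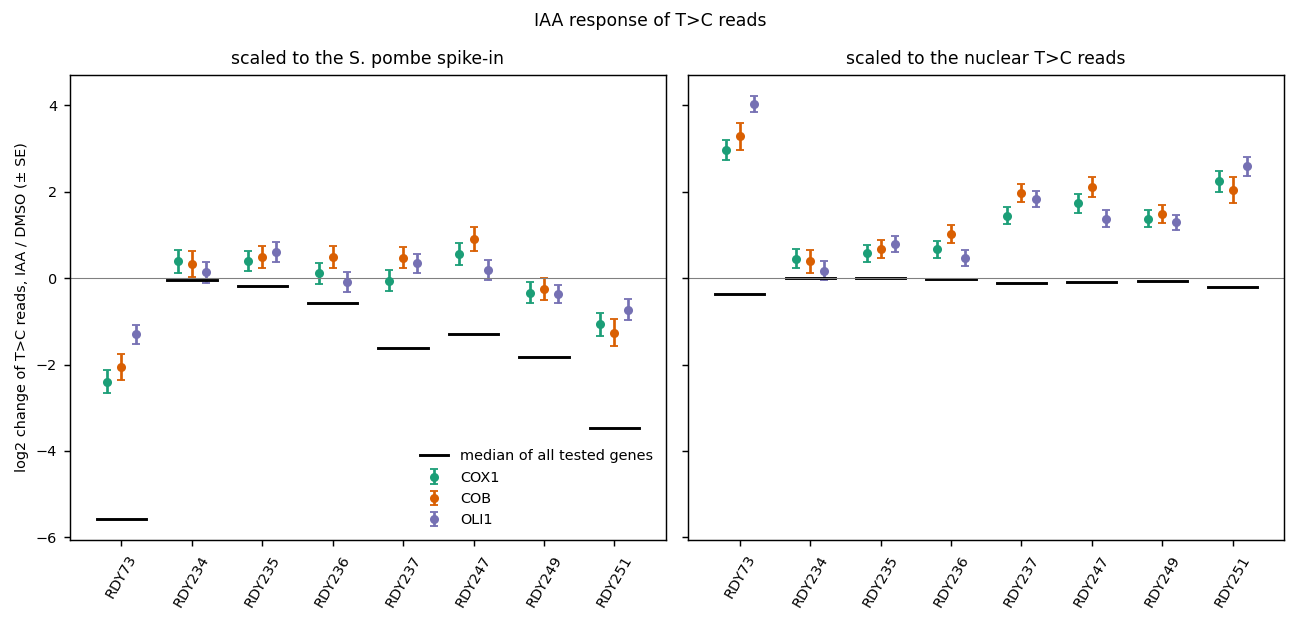
Log2 change of T>C reads, IAA over DMSO, for COX1, COB and OLI1 in the 8 strains, with bars of 1 SE and a black line at the median of all tested genes, scaled to the spike-in (left) and to the nuclear T>C reads (right). On the left the 3 genes lie above the line in every strain, by most in RDY73 and RDY251, and on the right they lie above 0 in every strain.

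The share of all T>C reads that came from the 8 genes was also counted, without a model. It was 0.428% ± 0.055 under IAA and 0.0529% ± 0.0098 under DMSO in RDY73, and 0.175% ± 0.0273 and 0.0456% ± 0.0014 in RDY251 (SD, n = 3 each). It was 0.138% ± 0.0192 under IAA and 0.0459% ± 0.0055 under DMSO in RDY237, and 0.0347% ± 0.005 and 0.0274% ± 0.0037 in RDY234. It was 0.108% ± 0.0074 under IAA and 0.037% ± 0.0111 under DMSO in RDY247, and 0.122% ± 0.018 and 0.0546% ± 0.0167 in RDY249. Under IAA the highest share was that of RDY73, the next that of RDY251, and these were the strains with the lowest and the next lowest nuclear conversion rate, 4.81 ± 0.249 and 13.7 ± 1.19 per 10000 T. This order follows from the divisor: the 8 genes gave at most 0.461% of the T>C reads of a library. The share therefore rises where the T>C reads of other genes fall, and it does not show a rise of the 8 genes.

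Total reads, which include RNA made before depletion, moved less than T>C reads. In RDY73, 6 of the 8 genes had a fall with an adjusted p under 0.05 but none reached 2-fold, in a comparison that called 87.3% of 5907 genes with a median of −2.25. The median of the 8 genes was −0.79. COX1 had 12452, 10584 and 9876 normalised total reads under IAA, against 26378, 15946 and 23163 under DMSO, a log2 change of −0.99 (SE 0.188, adjusted p = 3.01e-06). The IAA libraries were all below the DMSO libraries, as they were for COB, OLI1, ATP8 and VAR1. COB had −0.90 (SE 0.183), ATP8 −0.94 (SE 0.178), ATP6 −0.97 (SE 0.425), OLI1 −0.69 (SE 0.159) and VAR1 −0.48 (SE 0.185), with adjusted p values from 3.15e-06 for ATP8 to 0.0278 for ATP6 in edgeR.

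COX2 and COX3 did not show a fall in RDY73 total reads, with log2 changes of −0.23 (SE 0.336) and 0.02 (SE 0.31). COX3 had 84, 50 and 82 total reads under IAA, against 42, 20 and 43 under DMSO, before scaling, and COX2 had 119, 83 and 161 against 117, 19 and 74. Library B of the DMSO group was low for COX2, COX3 and ATP6, with 19, 20 and 12 reads. Without it COX1 (−1.18), ATP8 (−1.17), ATP6 (−1.46) and COB (−1.05) passed 2-fold and were called, and the same 4 genes were called without IAA library A, at −1.09, −1.03, −1.02 and −1.002.

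In RDY251 total reads fell for 5 of the 8 genes with an adjusted p under 0.05, none by 2-fold, where 78.3% of all genes were called and the median was −1.55. ATP8 had a log2 change of −0.72 (SE 0.182, adjusted p = 0.0003), COX1 −0.63 (SE 0.187, adjusted p = 0.00176), COB −0.54 (SE 0.184, adjusted p = 0.00527), OLI1 −0.52 (SE 0.159, adjusted p = 0.00223) and VAR1 −0.49 (SE 0.198, adjusted p = 0.0192). COX1 averaged 7660 ± 471 normalised total reads under IAA and 11821 ± 394 under DMSO (SD, n = 3 each), with no overlap. ATP6 had −0.91 (SE 0.468, adjusted p = 0.0608) and was called, at −1.16, without IAA library A.

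In RDY247 and RDY237 some total reads were higher under IAA. VAR1 had 656, 616 and 583 normalised total reads under IAA in RDY247, against 274, 320 and 365 under DMSO, a log2 change of 0.95 (SE 0.191, adjusted p = 3.80e-05, edgeR) with no overlap. COB, COX2 and COX3 had 0.47, 0.83 and 0.86 there, each with an adjusted p under 0.05 and under 2-fold, where 15.9% of all genes were called and the median was −0.53. Without DMSO library C, VAR1 (1.05), COX2 (1.17) and COX3 (1.22) were called. In RDY237 COX3 had 0.95 (SE 0.32, adjusted p = 0.00645) and VAR1 0.52 (SE 0.192, adjusted p = 0.0121), where 25.8% of all genes were called, and COX3 was called without DMSO library B (1.04), IAA library A (1.15) or IAA library B (1.02).

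No gene of the 8 was called on total reads in RDY249, RDY236, RDY235 or RDY234. In RDY249, where 21.7% of all genes were called, ATP8 had −0.55 (SE 0.178, adjusted p = 0.00459, edgeR) and COX3 had −0.38, which was called, at −1.08, without IAA library A. The share of all genes called was 1.2% in RDY236, 0.135% in RDY235 and 0.0508% in RDY234, with 2769, 493 and 138 genes at an unadjusted p under 0.05.

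Conversions per covered T do not use the spike-in. They divide by the T covered by all reads of a gene, so the amount of unlabelled RNA enters the rate. They were tested for 5 of the 8 genes (COX1, COB, OLI1, ATP8 and VAR1) among 3826 genes with at least 1000 covered T in every library. In RDY73 COX1 had 1.07, 1.23 and 1.43 conversions per 10000 T under IAA, against 3.93, 3.20 and 2.90 under DMSO, and fell by 1.42 on the log2 scale (SE 0.2, adjusted p = 3.08e-08, limma). COB had 1.77, 2.81 and 2.10 under IAA, against 4.47, 4.74 and 5.40 under DMSO, and fell by 1.14 (SE 0.199, adjusted p = 1.89e-06), or by 0.99, under 2-fold, without IAA library A. Neither gene had overlapping groups. ATP8 fell by 2.83 (SE 0.807, adjusted p = 0.00125) on 3 T>C reads under IAA and 16 under DMSO.

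OLI1 had 6.73, 6.38 and 3.80 conversions per 10000 T under IAA in RDY73, against 7.51, 13.1 and 6.89 under DMSO, a log2 change of −0.68 (SE 0.221, adjusted p = 0.00381, limma) that was under 2-fold, and VAR1 had −0.96 (SE 0.769, adjusted p = 0.223). The comparison called 99.6% of all genes with a median of −3.92. The summed nuclear genes had 4.98, 4.93 and 4.52 conversions per 10000 T in the RDY73 IAA libraries A, B and C. OLI1 was thus above them in A and B and below in C. In RDY251 ATP8 was the 1 gene of these 5 that was called, at −2.68 (SE 0.807, adjusted p = 0.00227), where 98.1% of all genes were called. It rested on 1 T>C read under IAA and 11 under DMSO, and with a pseudocount of 5 conversions it was not called, at −0.65 (adjusted p = 0.0675).

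None of the 5 genes was called in the other 6 strains, in which 49.3% of all genes were called for RDY237, 31.3% for RDY247, 79.5% for RDY249, 0.0261% for RDY236, 0% for RDY235 and 0% for RDY234. Unadjusted p values under 0.05 numbered 22 genes in RDY235 and 18 in RDY234. With the library letter as a replicate block the RDY236 count was 0 genes. VAR1 in RDY237 had a log2 change of 1.15 (SE 0.769, adjusted p = 0.158, limma), past 2-fold, and was called with the replicate block (adjusted p = 0.0164). COX1 in RDY247 had 3.85, 4.61 and 3.75 conversions per 10000 T under IAA, against 2.20, 2.53 and 3.21 under DMSO, a log2 change of 0.63 (SE 0.2, adjusted p = 0.00765, limma) with no overlap. In 3 cases 1 to 4 T>C reads were counted but no conversion was recorded within the interval (VAR1 in RDY236 IAA library C, and COX3 and ATP6 in RDY249 IAA library B).

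The pooled rates of the rarer messages were not all low. COX3 carried 74.1 conversions per 10000 T under IAA in RDY237, on 30 T>C reads, and 37.4 under DMSO, on 7, beside nuclear rates of 44.0 ± 5.30 and 88.8 ± 5.16 (SD, n = 3 each). COX2 carried 23.4 and 10.6 in the same groups, and COX1 5.35 and 5.39. COX3 had the highest pooled rate of the 8 genes in each group except RDY236 under DMSO, where COX2 had 14.04 on 6 T>C reads and COX3 12.9 on 2. These rates rest on 2 to 30 T>C reads of COX3 a group.

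The second question set each variant against unmodified BDF1, all under IAA. Relative to RDY234, the log2 differences of the 3 tested genes were positive in 5 of the 6 variants, where 0 to 2 genes were called, and negative in RDY251. COX1 averaged 42.5 ± 13.7 normalised T>C reads in RDY251 and 122 ± 20.9 in RDY234, and fell by 1.52 on the log2 scale (SE 0.265, adjusted p = 8.64e-08, edgeR). COB averaged 10.8 ± 2.28 and 30.0 ± 5.13 and fell by 1.44 (SE 0.319, adjusted p = 1.80e-05), while OLI1, at 41.5 ± 5.22 and 73.2 ± 15.3 (SD, n = 3 each), had −0.81 (SE 0.249, adjusted p = 0.00161), under 2-fold. None of the 3 overlapped between the strains, where 99.2% of all genes were called with a median of −4.39.

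OLI1 was highest in RDY249, with 299.7, 213 and 157 normalised T>C reads, against 69.0, 90.1 and 60.4 in RDY234. It rose by 1.61 (SE 0.234, adjusted p = 3.46e-09, edgeR) and COB rose by 1.06 (SE 0.277, adjusted p = 0.000368), while COX1 had 0.47 (SE 0.25, adjusted p = 0.0716), where 66.9% of all genes were called with a median of −1.27. COB rose in RDY247 as well, by 1.11 (SE 0.275, adjusted p = 0.000211), with OLI1 at 0.98 and COX1 at 0.54, where 65.6% were called. RDY247 and RDY249 belong to another series of library numbers than RDY234, and the 2 differences cannot be told apart there. COB in RDY249 had 0.94 without RDY234 library A and 0.73 without RDY249 library A, COB in RDY247 had 0.98 and 0.91 without library A of RDY234 or of RDY247, and OLI1 in RDY247 was called without RDY234 library B (1.14) or RDY247 library C (1.05).

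The variants with mutated bromodomains share the number series of RDY234. In RDY237 OLI1 rose by 1.06 (SE 0.232, adjusted p = 2.02e-05, edgeR), COB had 0.99 (SE 0.267, adjusted p = 0.000445) and COX1 0.54 (SE 0.244, adjusted p = 0.0301), where 84.2% of all genes were called with a median of −1.54. OLI1 had 179, 137 and 136 normalised T>C reads in RDY237 under IAA, against 69.0, 90.1 and 60.4 in RDY234, with no overlap. Which of COB and OLI1 was past 2-fold there changed with single libraries: OLI1 had 0.93 without RDY234 library C and 0.92 without RDY237 library A, and COB had 1.13 without RDY234 library C, 1.02 without RDY237 library A and 1.14 without RDY237 library B.

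In RDY236 COB had 51.2, 72.9 and 64.7 normalised T>C reads, against 24.8, 30.0 and 35.1 in RDY234, and rose by 1.05 (SE 0.272, adjusted p = 0.0126, edgeR), where 1.93% of all genes were called. The call was lost without library A (0.93) or B (1.05, adjusted p = 0.0537) of RDY234 and without library B (0.94) or C (1.03, adjusted p = 0.0573) of RDY236. In RDY235 the log2 changes were 0.74, 0.87 and 0.94 for COX1, COB and OLI1 with adjusted p values of 0.26, 0.234 and 0.0521, where 0.137% of all genes were called. The libraries of RDY235 lay above those of RDY234 for each of the 3 genes, but no adjusted p was under 0.05. How many of all genes were separated in this way was not counted.

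**Figure D5:**
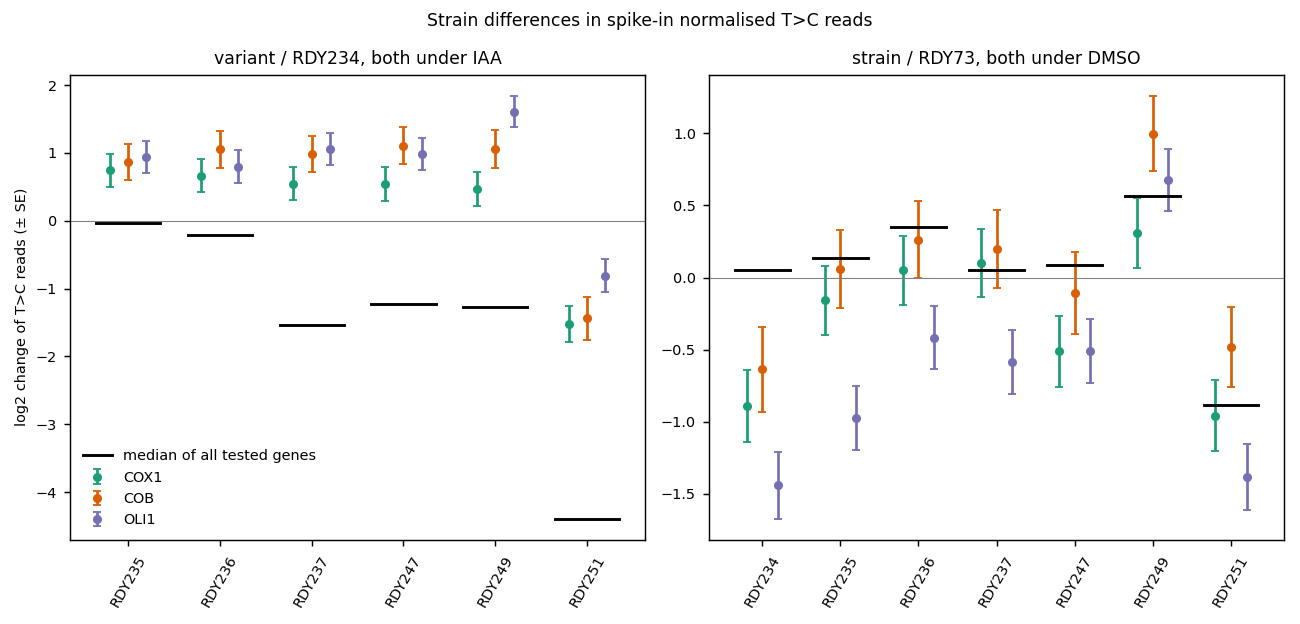
Log2 difference in normalised T>C reads of COX1, COB and OLI1 between strains, with bars of 1 SE and a black line at the median of all tested genes: variants over RDY234 under IAA (left) and strains over RDY73 under DMSO (right). On the left the 3 genes lie above 0 in 5 variants and below 0 in RDY251, always above the line, and on the right OLI1 is at −1.44 in RDY234 and −1.38 in RDY251, while all 3 genes are above 0 in RDY249.

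Without depletion, each strain was set against RDY73 under DMSO. OLI1 was lower in RDY234, with 55.0, 52.6 and 88.6 normalised T>C reads, against 177, 211 and 149 in RDY73, and fell by 1.44 (SE 0.233, adjusted p = 5.92e-07, edgeR). COX1 had −0.89 there (SE 0.251, adjusted p = 0.00436) and COB −0.64, where 11% of all genes were called, and COX1 was called without RDY73 library B (−1.09) or RDY234 library A (−1.08). OLI1 was also lower in RDY251, by 1.38 (SE 0.227, adjusted p = 2.20e-07), with COX1 at −0.96 (SE 0.247, adjusted p = 0.000448) and COB at −0.48, where 41.5% of all genes were called with a median of −0.89. COX1 in RDY251 was called without RDY73 library B (−1.16) or C (−1.03) or RDY251 library C (−1.05). These strains belong to another series of library numbers than RDY73, and an effect of the strain and one of the number series cannot be told apart.

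No tested gene was called in the other 5 strains under DMSO. OLI1 had −0.97 in RDY235 (SE 0.223, adjusted p = 0.000348, edgeR), where 11.6% of all genes were called, and passed 2-fold without RDY73 library C (−1.09) or RDY235 library A (−1.01) or B (−1.02). It had −0.42 in RDY236, where 13.8% were called, and −0.59 in RDY237, where 10.5% were called. Within the number series of RDY73, RDY247 had −0.51, −0.11 and −0.51 for COX1, COB and OLI1, where 2.54% of all genes were called.

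RDY249, also of that series, had 0.31 for COX1, 1.00 for COB (SE 0.263, adjusted p = 0.00257, edgeR) and 0.68 for OLI1, where 8.19% of all genes were called with a median of 0.57. The COB value was just under 2-fold, and it was called without RDY73 library A (1.03) or C (1.11) or RDY249 library B (1.06) or C (1.20), and with the library letter as a replicate block (1.003). COB had 105.5, 68.7 and 51.7 normalised T>C reads in RDY249 under DMSO, against 38.7, 30.1 and 43.1 in RDY73, with no overlap.

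The nuclear genes for the same complexes fell as most nuclear genes did. In RDY73 under IAA all 9 nuclear subunits of cytochrome c oxidase were lowered, with a median log2 change in T>C reads of −5.21, as were 9 of the bc1 complex (median −5.02), 14 of the ATP synthase (−5.04) and 25 of the small mitochondrial ribosomal subunit (−5.84), against −5.57 over all genes, of which 99.9% were lowered. The oxidase subunits ran from COX8 at −6.09 to COX6 at −4.32, the bc1 subunits from CYT1 at −6.49 (on 3 T>C reads under IAA and 163 under DMSO) to COR1 at −4.23 and the ATP synthase subunits from TIM11 at −5.80 to ATP3 at −3.86. MRP4 was the highest of the ribosomal proteins, at −4.92, and RSM22 had 0 T>C reads under IAA and 196 under DMSO, at least 132-fold lower by a floor of 3 counts over the group. Every gene of these lists had a lower log2 change than COX1, COB and OLI1.

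The factors that copy, transcribe, process and translate the mitochondrial genome fell too, in the same comparison that lowered 99.9% of all genes. Of the nuclear genes for mitochondrial DNA and RNA factors, 17 of 17 were lowered (median −6.23, with 2 of them at 0 under IAA), from NAM2, with 0 T>C reads against 60 and at least 40.4-fold lower, to RPM2 at −3.72. Of the message-specific translation factors 16 of 16 tested were lowered (median −5.81), from CBP6 at −7.12 to ATP22 at −4.52. RPO41, the mitochondrial RNA polymerase, fell by 5.22 (SE 0.336, adjusted p = 1.45e-28, edgeR) in T>C reads and by 1.93 (SE 0.157) in total reads, which averaged 115 ± 5.47 under IAA and 440 ± 43.8 under DMSO (SD, n = 3 each). In RDY251 it fell by 3.28 in T>C reads and by 1.16 in total reads, and in RDY237 and RDY249, in which the T>C reads of COX1, COB and OLI1 were not called, by 1.37 and 1.75 in T>C reads, with total reads at −0.26 and −0.43.

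Of the other 38 counted genes on the mitochondrial genome, 12 had enough T>C reads for a test, and they moved in the same direction as COX1, COB and OLI1. In RDY73 all 12 were lowered under IAA, with a median of −2.13, from AI5_ALPHA at −2.51 to SCEI at −1.58, and all 12 were raised relative to the nuclear genes, with a median of 3.20, from 15S_RRNA at 2.81 to SCEI at 3.76. In RDY251 5 of 12 were lowered and 12 were raised relative to the nuclear genes. Of the 12, 6 lie inside the COX1 interval and 3 inside the COB interval, so they share reads with those genes, and the other 3 are 15S_RRNA, 21S_RRNA and SCEI, which lies in the intron of 21S_RRNA.

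Over the 16 groups, the 5 genes whose T>C profile was most like the mean profile of the 8 were all mitochondrial. BI4 had a Pearson correlation of 0.975, BI3 0.958, 21S_RRNA 0.955, AI4 0.932 and SCEI 0.932, with BI3 and BI4 lying in COB and AI4 in COX1. Between the 8 genes, the correlation was 0.965 for COX1 and COB, 0.828 for COB and OLI1 and 0.774 for COX1 and OLI1. For COX2 and OLI1 it was 0.00772, with COX2 at a mean of 2.25 T>C reads per library. These values describe group means that share a spike-in scale and library depth.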

How the data were processed

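The deposited tables hold counts per gene, made by the authors with SLAM-DUNK 0.4.3 after trimming with fastp 0.23.2: total reads, reads with at least 2 T>C conversions, conversions and covered T, over intervals that ran 250 bases past each gene's end, for S. cerevisiae (R64) and S. pombe (ASM294v2) reads of the same libraries. Intervals that overlap share reads, and multiply mapped reads are counted. The labels give 6 min of 4tU and the methods 4 min. Each group had 3 libraries, described as biological replicates; p-values measure the spread between these libraries.

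From the counts, size factors were computed as medians of ratios over 4955 S. pombe genes. T>C and total reads were tested with edgeR 4.0.16 (quasi-likelihood, all 16 groups in one fit, genes with a mean count of at least 10), in R 4.3.3. Conversion rates, log2 of conversions plus 0.5 over covered T plus 1, were tested with limma 3.58.1 for genes with at least 1000 covered T in every library. P-values were adjusted by Benjamini-Hochberg over all genes tested. Where groups are said not to overlap, the share of all genes without overlap was not counted. DESeq2 1.42.0, other scalings, filters, pseudocounts, a replicate block and leaving out each of the 48 libraries were tried as alternatives. Libraries of a group are lettered A to C in the labels. The deviations from the group means of same-letter IAA and DMSO libraries correlated above 0.1 in all 3 pairs of RDY73, RDY236 and RDY249 (0.106 to 0.413). They did not in every pair of the other 5 strains. The main tests did not pair libraries in any strain, and the letter entered only in the replicate block. The scripts were tested on simulated data.

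The members and the gene lists were chosen with earlier results of these data known. All 8 members are named, with the highest and lowest gene of each list in RDY73 under IAA, the 5 tested genes most like the members over the group means, and RPO41 and BDF1 as checks. BDF2 and TRP1 were also chosen as checks, and their values are not given here. Sequences are from the RefSeq R64 genome.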

Additional observations from a re-analysis of the deposited data

Results flagged for a closer look

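The response to IAA differed between strains for the tested mitochondrial genes, by edgeR's test of the difference between the log2 changes of 2 strains. Relative to RDY234, with unmodified BDF1, the response of RDY73 was lower by a log2 difference of −2.78 for COX1, −2.39 for COB and −1.43 for OLI1, and that of RDY251, with 4 changed ET residues, by −1.45 for COX1 and −1.59 for COB. The 3 differences of RDY73 stayed called with any 1 library of RDY73 or RDY234 left out. The same test called 99.9% of all genes for RDY73, with a median of −5.52, and 99% for RDY251, with a median of −3.42. Being called was thus not particular to the mitochondrial genes, whose differences were smaller than these medians.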

How the results depend on the processing

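Of 2370 log2 changes of the 8 genes under the alternatives, 2190 kept their direction and their side of the call, 16 were no longer called and 43 were newly called. None changed sign while called, and 121 uncalled values did, the largest at 0.828. Of 606 counts of called genes, 20 moved by more than 1.5 times with all libraries kept, and 37 with 1 library left out.

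Testing every gene with a T>C read brought in genes with few reads. For IAA against DMSO it called 6 genes lowered in RDY73, 2 raised in RDY237 and 2 raised in RDY247. The same test called 92.9%, 79.3% and 66.9% of all genes in these strains. For the variants against RDY234 it called 3 in RDY237 and 2 in RDY247, where the main test called 84.2% and 65.6% of all genes. For the strains against RDY73 it called 1 in RDY235, 1 in RDY236 and 3 in RDY251, where the main test, on fewer genes, called 11.6%, 13.8% and 41.5%. COX2 was the gene called in RDY235 and RDY236, and it was also called in RDY251, raised each time. These COX2 calls rest on 0 T>C reads in RDY73 under DMSO, which allow no fold. OLI1 and VAR1 were called lowered in RDY251. For the response against that of RDY234 it called 5 in RDY73, where the main test called 99.9%. On the nuclear scale it called 6 in RDY73, 6 in RDY237 and 5 in RDY247, where the main test called 16.2%, 3.85% and 5.02% of all genes. Trimmed-mean scaling of the spike-in called 2 genes in RDY237 against RDY234, and size factors from S. pombe T>C reads called 2 there, 2 in RDY247 and 1 in RDY235 against RDY73. DESeq2 called 1 in RDY249 against RDY73, where the main test called 8.19% of all genes. A pseudocount of 5 conversions left 0 rate calls among the members in RDY251, where the main test called 98.1% of all genes.

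With 1 library left out, the number of genes called for IAA against DMSO was 0 to 1 in RDY247 (76.7%) and 1 to 2 in RDY251 (99.1%). The call in RDY247 was COB, raised, and those in RDY251 were lowered. Percentages in brackets in this paragraph are the shares of all genes called by the main test. Against RDY234 under IAA the number was 0 to 1 in RDY236 (1.93%), 1 to 2 in RDY237 (84.2%), 0 to 2 in RDY247 (65.6%) and 1 to 2 in RDY249 (66.9%). Against RDY73 under DMSO it was 1 to 2 in RDY234 (11%), 0 to 1 in RDY235 (11.6%), 0 to 1 in RDY249 (8.19%) and 1 to 2 in RDY251 (41.5%). For the response against that of RDY234 it was 0 to 1 in RDY249 (92.8%). On total reads it was 0 to 4 in RDY73 (87.3%), 0 to 1 in RDY237 (25.8%) and 0 to 3 in RDY247 (15.9%). It was also 0 to 1 in RDY249 (21.7%) and 0 to 1 in RDY251 (78.3%) on total reads, and on the nuclear scale 0 to 1 in RDY236 (0.625%). The cause was not tested.

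The libraries of a group are lettered A to C. Over 24 pairs of IAA and DMSO libraries with the same letter, the correlation of deviations from the group means ran from −0.334 to 0.413 and was over 0.1 in 16. In the 5 strains other than RDY73, RDY236 and RDY249 at least 1 pair was not over 0.1. Same-letter libraries had adjoining library numbers in every strain, and the correlation does not settle whether they were paired. With the letter as a replicate block 210 of 212 gene calls were unchanged and 2 were added: COB in RDY249 against RDY73 (log2 change 1.003, 1 gene called) and the VAR1 conversion rate in RDY237 (1.15, adjusted p = 0.0164 in limma, 1 gene called). Over all genes, S. pombe T>C size factors moved the median of RDY249 against RDY73 by −0.204 and left 134 genes called, against 419. Summed nuclear T>C reads as the scale moved the median on the nuclear scale by −0.547 in RDY73, with 1695 genes called against 831, and by −0.41 in RDY251, with 1080 against 491. Depth limits the T>C reads of COX2, COX3, ATP6, ATP8 and VAR1 most, which together hold 5.28% of the T>C reads of the 8 genes.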
